A study of Mus musculus with 36 samples.

Results

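The genes described here are 8 T cell costimulatory receptors of the mouse: Tnfrsf4 (OX40), Tnfrsf9, Tnfrsf18 (GITR), Icos, Cd28, Cd27, Cd2 and Cd226 (DNAM-1). They were chosen by gene name, and all 8 are among the 24781 genes of the count table. The study counted RNA molecules in sorted cells from MC38 colon adenocarcinoma tumours, taken 7 days after inoculation. It holds 18 libraries of CD8 T cells (gate CD45+ TCRbeta+ CD8+) and 18 of tumour-associated macrophages (TAM; gate CD45+ CD11b+ F4/80high), each made from 100 cells, with 6 libraries per group. The library counts molecules by their barcode, so a molecule amplified many times by PCR counts once.

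Each cell type came from 3 groups of mice. Wild-type mice were C57BL/6 and untreated by the labels, muMt-/- mice carried their deletion on C57BL/6J and were also untreated by the labels, and the last group was muMt-/- mice with a slow-release pellet of GABA. The study's methods describe placebo pellets for mice without GABA, and its figure legend for TAM names these groups as placebo-treated. Pellets went in before the tumour cells. Untreated, as used below, means without GABA. The study as a whole used adult mice of both sexes, and the labels give no age. muMt-/- mice lack mature B cells for life, so acute loss of B cells is not what they model, and no group of wild-type mice received GABA here. The labels do not say whether a CD8 and a TAM library with the same number came from 1 mouse.

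A T cell needs a signal through its antigen receptor together with costimulation to divide, survive and produce cytokines. Cd28 and Icos belong to the immunoglobulin superfamily, bind B7-family ligands on antigen-presenting cells and recruit PI3 kinase, whereas Tnfrsf4, Tnfrsf9, Tnfrsf18 and Cd27 belong to the TNF receptor superfamily and signal through TRAF adaptors. Cd2 is an adhesion receptor that binds Cd48 in mice, and Cd226 binds Pvr and Nectin2, ligands it shares with the inhibitory receptors Tigit and Cd96.

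Sequencing depth differed between the groups. CD8 libraries held 22896 to 76898 molecules in wild-type mice (median 42065.5), from 51064 to 77839 in muMt-/- mice, where the median was 67121.5, and from 65356 to 98015 with GABA, where it was 80283. TAM libraries were larger, with 206394 to 304100 (median 242756), 100254 to 253608 (median 149960) and 151856 to 262606 (median 192775) in the same order. Within a cell type the values below are normalized numbers, molecules divided by DESeq2's size factor of the library, and values compared across cell types are per 10000 molecules. Fewer cells that carry a receptor and less of its RNA per cell cannot be told apart in libraries of 100 pooled cells.

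The CD8 label was checked against marker genes. All 6 T cell markers were detected in CD8 libraries, with 2815 molecules in the 18 libraries together against 42 in the 18 TAM libraries, and Thy1 was the most abundant of them (1182 against 24). Cd8a and Cd8b1 together gave 1440 molecules in CD8 and 10 in TAM. Cd4 and Foxp3 each reached at most 2 molecules in any library, and the list of CD4 and regulatory T cell markers gave 58 molecules in CD8 and 26 in TAM, mostly Ikzf2 (46 and 21). Natural killer cell markers gave 59 and 5, of which Klre1, also found on activated CD8 T cells, made up 50 in CD8, with Ncr1 and Klra8 at 0 in every library. B cell markers gave 5 molecules in CD8 and 20 in TAM, nearly all Cd79b, with Cd79a and Pax5 at 0 throughout. Tumour and stroma markers gave 60 molecules in CD8, where Krt8, Krt18 and Krt19 were at 0, and 1643 in TAM. Mast cell markers came to 0 and 1 molecules. Markers of dendritic cells gave 383 in CD8 and 211 in TAM. In CD8 they were 291 of Ccr7, a gene T cells also express, 86 of Fscn1 and at most 3 of each other marker, with Clec9a at 0.

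Macrophage RNA was also present in the CD8 libraries, with overlapping sums in the 3 groups. All 16 macrophage markers were detected there, with 2144 molecules (Ctss highest, 723) against 64169 in TAM. Their summed normalized number in CD8 had a lowest value, median and highest value of 10.3, 23.4 and 119 in wild-type, 52.0, 89.7 and 399 in muMt-/- and 18, 117 and 217 in GABA-treated mice. Of the 14 markers tested, 0 passed adjustment, beside 0% of all 6663 genes. At unadjusted p under 0.05, 11 were higher in muMt-/- than in wild-type mice (median log2 fold change 2.15), beside 5.37% of genes. In GABA-treated against wild-type mice 11 were higher (median 2.27), beside 5.99%. All 14 had a log2 fold change above 0 in both of these comparisons. Between the 2 muMt-/- groups the median was -0.02.

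Some CD8 libraries stood apart. Replicate 1 of the muMt-/- group had the highest macrophage sum of all 18 (399) and the lowest T cell marker sum (77.9). Replicates 1 and 3 of the GABA group came next for macrophage markers (217 and 214), with T cell sums of 85.2 and 112, and replicate 5 of the wild-type group had 119 where the other 5 had at most 28.7. In 5 CD8 libraries macrophage markers outnumbered T cell markers: muMt-/- replicates 1, 3 and 5 and GABA replicates 1 and 3. A fit of the other 13, chosen after seeing these sums, is quoted below as the T-cell-rich fit (6 wild-type, 3 muMt-/- and 4 GABA libraries). It called 0 of the 8 receptors in each of the 3 comparisons. Beside these it called 1 (muMt-/- against wild-type), 1 (GABA-treated against untreated) and 2 (GABA-treated against wild-type) of 6663 genes. Each fit that left out 1 library also called 0 of the 8. At unadjusted p under 0.05 the T-cell-rich fit had Cd226 in muMt-/- against wild-type mice, beside 4.61% of genes. It also had Tnfrsf9 in GABA-treated against wild-type mice, beside 4.74%. What part the macrophage RNA has in any receptor value was not tested.

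**Figure D1:**
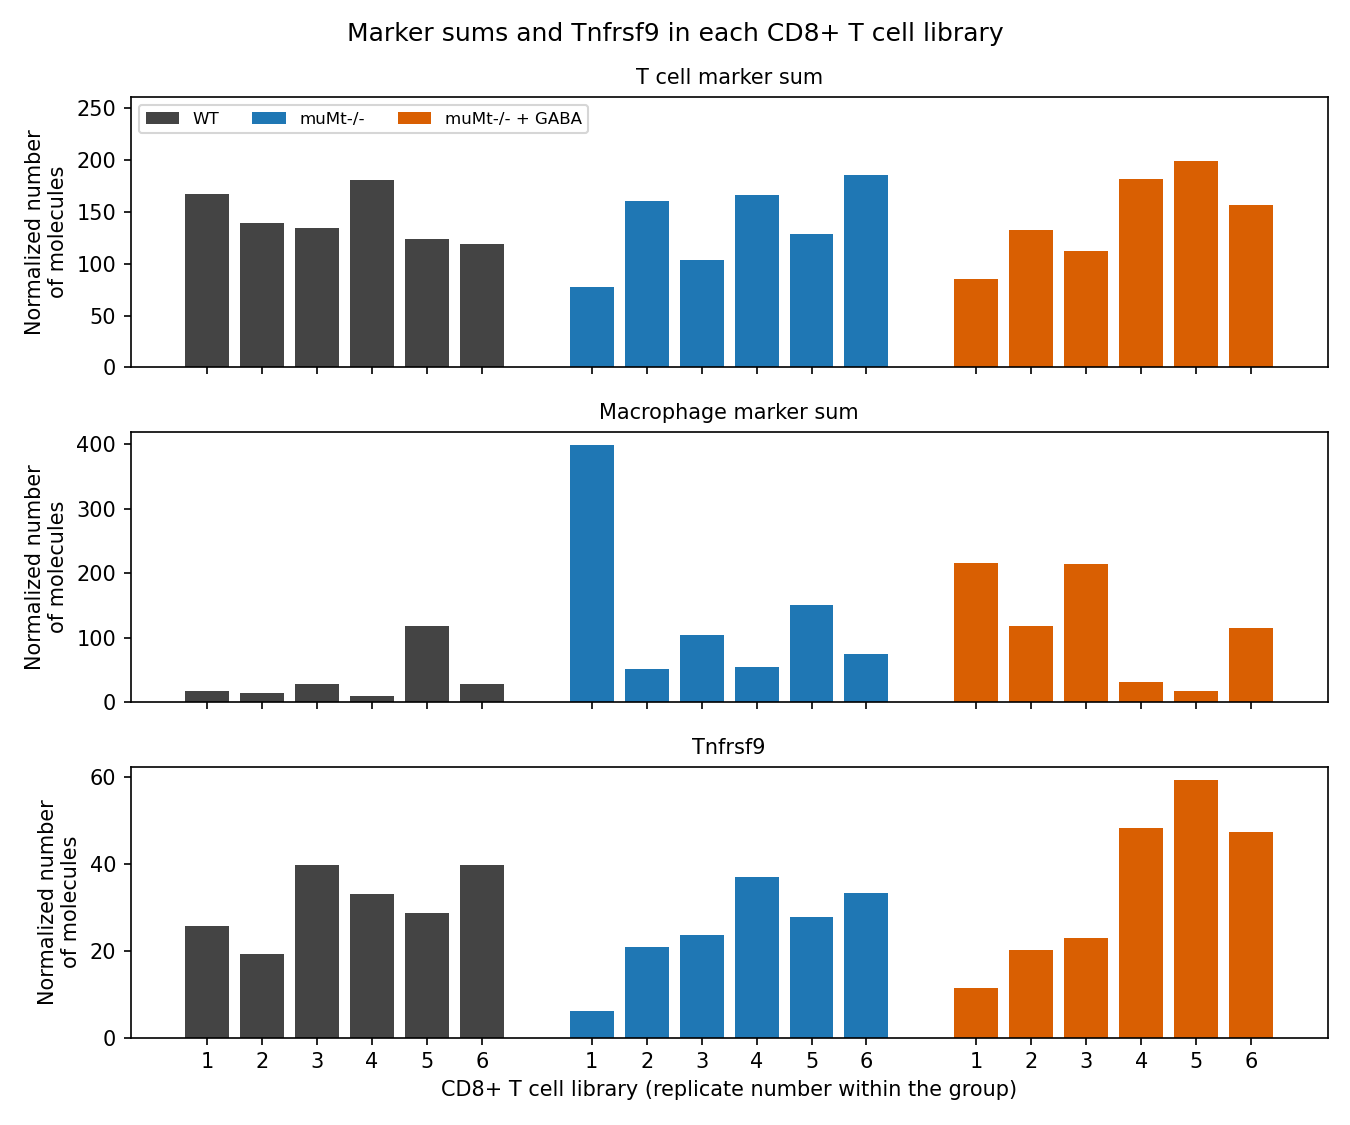
Summed normalized number of the 6 T cell markers, of the 16 macrophage markers and of Tnfrsf9 in each of the 18 CD8 libraries (1 bar per library, ordered by group and replicate). The macrophage sum reached 399 in muMt-/- replicate 1, where the T cell sum was 77.9 and Tnfrsf9 was 6.07.

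None of the 8 receptors passed the test between groups of CD8 T cells. All 8 passed the filter (mean normalized number above 1) into a fit of 6663 genes, and edgeR's quasi-likelihood test with Benjamini-Hochberg adjustment called 0 of 8 in muMt-/- against wild-type mice, beside 0% of all genes. DESeq2 found 0 of 8 at either threshold, beside 0 genes called and 3.33% of 6662 genes at unadjusted p under 0.05. At that level edgeR still found 0 of 8, where 5.37% of genes were higher and 0.795% lower. The smallest adjusted p of the 8 was 0.938 (0.674 to 1 over the alternatives), and log2 fold changes ran from -0.50 to 0.69 with 3 above and 5 below 0.

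GABA-treated against untreated muMt-/- mice also gave 0 of 8, beside 0% of all genes. edgeR and DESeq2 each found 0 of 8 at unadjusted p under 0.05. At that level edgeR had 2.01% of genes higher and 1.7% lower, and DESeq2 had 133 of 6662 genes, with 0 called. With no filter, and with a replicate block, edgeR had 1 of 8 at that level, Tnfrsf9, beside 4.45% and 3.42% of genes. Here 5 receptors had a log2 fold change above 0 and 3 below, from -0.46 to 0.56, and the smallest adjusted p was 0.999.

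In GABA-treated against wild-type mice the count was again 0 of 8, with 0% of all genes called. Neither test had a receptor at unadjusted p under 0.05, a level reached in DESeq2 by 3.33% of 6662 genes, of which 1 was called. In edgeR 5.99% of genes reached it upward and 0.9% downward. Log2 fold changes lay between -0.41 and 0.33, 6 above 0 and 2 below, with 0.862 as the smallest adjusted p. The 3 comparisons share libraries in pairs, so their values are not separate evidence.

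Scaling matters to values this small. Under TMM scaling the median log2 fold change of all 6663 genes was 0.15, 0.03 and 0.21 in the 3 comparisons, and that of the 8 receptors was -0.11, 0.09 and 0.22. Read against the all-gene median, 2 receptors lay above and 6 below it in muMt-/- against wild-type mice, 5 and 3 in GABA-treated against untreated, and 4 and 4 in GABA-treated against wild-type. With DESeq2 size factors the all-gene median was 0.06, -0.02 and 0.06. Scaling libraries to their T cell markers gave 0.16, -0.07 and 0.11. P-values and the standard errors given with fold changes measure the spread between libraries, 1 mouse each. Intervals and bounds on molecule counts, given for CD8 against TAM, cover counting error only.

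Tnfrsf9 (4-1BB) appears on T cells after activation and favours the survival of CD8 T cells. Its normalized number had a lowest value, median and highest value of 19.2, 30.8 and 39.8 in wild-type, 6.07, 25.7 and 37.0 in muMt-/- and 11.4, 35.1 and 59.3 in GABA-treated mice. The GABA group was split: replicates 4, 5 and 6 (48.3, 59.3 and 47.3) lay above every library of the other 2 groups, and replicates 1, 2 and 3 (11.4, 20.1 and 22.9) lay below the muMt-/- median. In muMt-/- mice replicate 1 was the lowest, at 6.07 against 20.8 or more in the rest.

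The largest difference of Tnfrsf9 was between the 2 muMt-/- groups, a log2 fold change of 0.56 (SE 0.33, 95% interval -0.11 to 1.23) or 1.48-fold, with adjusted p = 0.999 (0.781 to 1 over the alternatives). It was 0.35 without muMt-/- replicate 1, 0.33 without GABA replicate 5 and 0.56 in the T-cell-rich fit. Against wild-type mice it was -0.23 (SE 0.35) in muMt-/- mice and 0.33 (SE 0.34) in GABA-treated mice. The first of these was -0.03 without muMt-/- replicate 1 and turned to 0.02 in the T-cell-rich fit. The other was 0.10 without GABA replicate 5 and 0.58 in the T-cell-rich fit, and its lowest value under another alternative was 0.02.

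Counted per 100 molecules of the 6 T cell markers, Tnfrsf9 had medians of 20.7, 19.8 and 23.5 in the 3 groups, with ranges of 13.8 to 33.5, 7.79 to 22.8 and 13.4 to 30.2. On this scale GABA replicates 4, 5 and 6 (26.6, 29.8 and 30.2) were still above every muMt-/- library but no longer above every wild-type one. With libraries scaled to their T cell markers, a choice made after seeing the marker sums, the log2 fold change between the 2 muMt-/- groups was 0.36.

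Tnfrsf4 (OX40) is another receptor that activated T cells gain, best known for prolonging CD4 responses. It ranged from 2.40 to 12 in wild-type (median 4.04), 2.45 to 8.92 in muMt-/- (median 4.83) and 1.27 to 11.8 in GABA-treated mice (median 6.69). No group stood apart: wild-type replicates 4 and 6 and GABA replicates 4 and 6 made up the top 4, and each group had a library under 3. Log2 fold changes of Tnfrsf4 were -0.30 (SE 0.46) in muMt-/- against wild-type mice, 0.40 (SE 0.43) in GABA-treated against untreated and 0.10 (SE 0.44) in GABA-treated against wild-type, where DESeq2 size factors turned it to -0.05 and T cell marker scaling to -0.07. The value of -0.30 became 0.13 in the T-cell-rich fit. Leaving out 1 library moved the value of 0.40 between 0.18 and 0.64.

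Tnfrsf18 (GITR) is high on regulatory T cells and rises on effector cells when they are activated. Its lowest, median and highest normalized numbers were 0, 11.7 and 19.4 in wild-type, 8.09, 12.8 and 19.1 in muMt-/- and 8.26, 11 and 19.5 in GABA-treated mice. The 0 was wild-type replicate 1, a library of 32394 molecules in which 3 molecules would have read 5.50, and the other 17 libraries of the 3 groups shared 1 range. Its log2 fold changes were 0.25 (SE 0.35), -0.01 (SE 0.32) and 0.24 (SE 0.35) for muMt-/- against wild-type, GABA-treated against untreated and GABA-treated against wild-type mice. Without wild-type replicate 1, the library at 0, the 2 values against wild-type mice were 0.033 and 0.021.

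Cd27, unlike the other 3 TNF receptors of the set, is already present on naive T cells and is lost in late differentiation. It spanned 2.21 to 12.8 in wild-type (median 9.22), 3.03 to 11.2 in muMt-/- (median 6.19) and 3.18 to 15.5 in GABA-treated mice (median 7.55). The ranges coincided, although GABA replicates 1, 2 and 3 were all under 5 and replicates 4, 5 and 6 all above 10. Cd27 had log2 fold changes of -0.09 (SE 0.42) in muMt-/- against wild-type, 0.30 (SE 0.38) in GABA-treated against untreated and 0.20 (SE 0.41) in GABA-treated against wild-type mice. Their signs were not stable: the first was 0.28 in the T-cell-rich fit and the last was -0.04 under T cell marker scaling and -0.01 under the filter filterByExpr.

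Cd28 is the receptor for Cd80 and Cd86 that naive T cells need for priming. In wild-type mice it had a lowest value of 5.26, a median of 16.4 and a highest value of 33.2, in muMt-/- mice 6.86, 14.7 and 21.3, and in GABA-treated mice 2.48, 11.3 and 20.5. Only wild-type replicates 3 and 4 exceeded the muMt-/- maximum, and the wild-type group also held a low library, replicate 6. Log2 fold changes of Cd28 were -0.14 (SE 0.38), -0.15 (SE 0.37) and -0.29 (SE 0.38) in muMt-/- against wild-type, GABA-treated against untreated and GABA-treated against wild-type mice. In the T-cell-rich fit they were 0.26, -0.27 and less than 0.01 from 0.

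Icos, induced after activation, binds Icosl and is a strong activator of PI3 kinase. Its lowest value, median and highest value were 13.7, 19.3 and 45.7 in wild-type, 12.1, 26.1 and 33.4 in muMt-/- and 14.3, 21.0 and 40.6 in GABA-treated mice. Wild-type replicates 2 and 4 and GABA replicates 4 and 5 were the only libraries above 35, so both high and low libraries occurred in those 2 groups. Its log2 fold changes were 0.14 (SE 0.32), 0.09 (SE 0.30) and 0.23 (SE 0.31) in muMt-/- against wild-type, GABA-treated against untreated and GABA-treated against wild-type mice, and filterByExpr put each of the 3 within 0.01 below 0. In the first of these the mean normalized numbers ran the other way, 24.4 in muMt-/- against 24.8 in wild-type mice.

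Cd2 strengthens the contact between a T cell and its partner. Its normalized number was 13.5 at the lowest, 20.0 at the median and 24.3 at the highest in wild-type, 3.03, 13.7 and 16.7 in muMt-/- and 3.10, 12.5 and 21.3 in GABA-treated mice. The wild-type group had no low library, whereas 3 of 6 muMt-/- and 3 of 6 GABA libraries lay below every wild-type one, and 0 of the muMt-/- and 1 of the GABA libraries exceeded the wild-type median. The log2 fold change against wild-type mice was -0.50 (SE 0.36, 95% interval -1.23 to 0.23) in muMt-/- mice, 1.41-fold lower, and -0.41 (SE 0.35, -1.12 to 0.31) in GABA-treated mice, with adjusted p = 0.938 (0.674 to 1 over the alternatives) and 0.862 (0.621 to 0.999).

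Cd2 had the lowest fold change of the 8 in both comparisons with wild-type mice. It was -0.65 and -0.61 relative to the all-gene median, and per 100 T cell marker molecules its medians were 12.5, 8.54 and 8.78 in the 3 groups, with ranges of 11 to 18, 3.90 to 10.8 and 2.76 to 13.6. The CD8 lineage markers Cd8a and Cd8b1 together had medians of 87.1, 65.4 and 68.9 in the 3 groups. Against wild-type mice Cd8b1 had log2 fold changes of -0.40 in muMt-/- and -0.32 in GABA-treated mice and Cd8a of -0.0006 and -0.04, none called, and their part in the Cd2 values was not tested. On the scale of T cell markers, looked at after seeing the values, all 6 muMt-/- libraries lay below all 6 wild-type ones, true of 1 of the 8 receptors and of 0.03% of genes tested. The margin was narrow, at 10.8 against 11, and edgeR with T cell marker scaling gave -0.63 with adjusted p = 0.9996. The 2 lowest Cd2 values belonged to muMt-/- replicate 1 and GABA replicate 3, which were among the libraries highest in macrophage markers. Without muMt-/- replicate 1 the first fold change was -0.29, without GABA replicate 3 the other was -0.19, and the T-cell-rich fit gave -0.15 and -0.14. Between the 2 muMt-/- groups it was 0.09 (SE 0.35), and -0.02 under T cell marker scaling.

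Cd226 is an adhesion receptor that promotes killing by CD8 T cells and natural killer cells. Its counts were low, 14, 34 and 28 molecules in the 6 libraries of each group, with normalized numbers of 0 to 7.33 in wild-type (median 3.76), 0.82 to 8.92 in muMt-/- (median 5.47) and 1.24 to 5.49 in GABA-treated mice (median 3.83). Wild-type replicate 5 had none in 51737 molecules, where 3 molecules would have read 3.43, and the ranges of the 3 groups overlapped. Its log2 fold changes had the widest errors, 0.69 (SE 0.55, 95% interval -0.42 to 1.80) in muMt-/- against wild-type, -0.46 (SE 0.47) in GABA-treated against untreated and 0.23 (SE 0.56) in GABA-treated against wild-type mice, where the mean normalized numbers ran the other way (3.50 against 3.93). Leaving out 1 library moved the first between 0.37 and 0.98, the next between -0.68 and -0.14 and the last between -0.075 and 0.52. Under the other alternatives the last lay between 0.02 and 0.56. The first was 1.20 in the T-cell-rich fit, with adjusted p = 0.941 (0.769 to 1 over the alternatives).

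**Figure D2:**
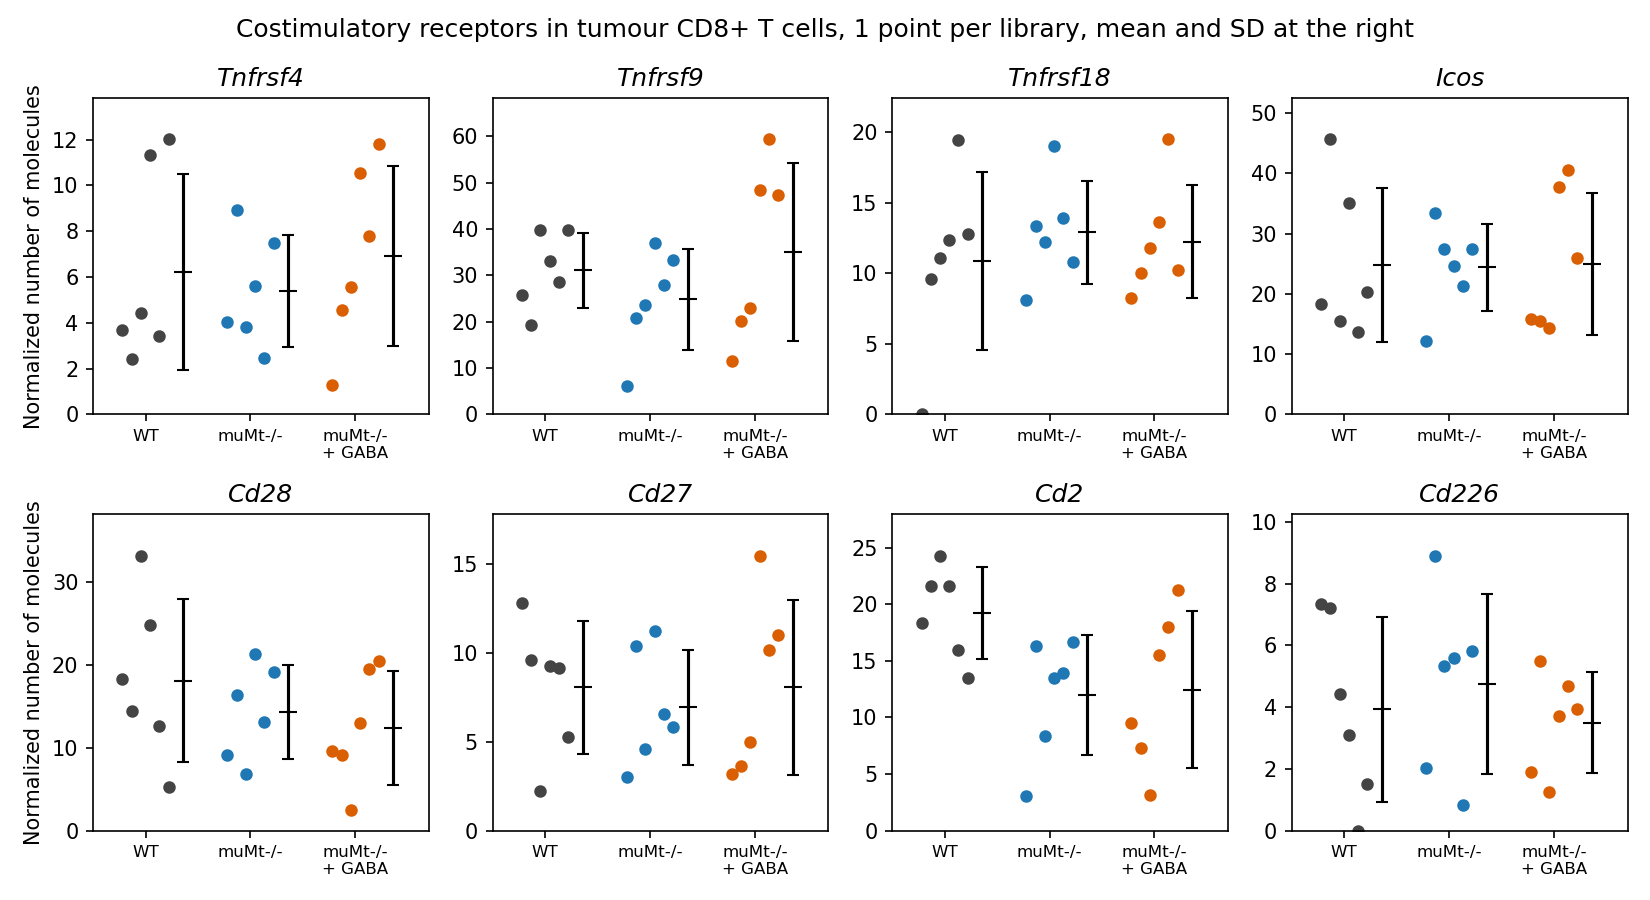
Normalized number of each of the 8 receptors in the 18 CD8 libraries, by group (points are libraries, and the marker at the right of each group is mean ± SD). The 3 groups overlapped in every panel, and Tnfrsf9 in GABA-treated mice split into 3 libraries at 11.4 to 22.9 and 3 at 47.3 to 59.3.

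The spread between libraries is given here beside the spread that counting alone would give, from 6 libraries a group, with no test. The coefficient of variation of Tnfrsf9 was 26.3% in wild-type, 44.2% in muMt-/- and 55.0% in GABA-treated mice, with counting values of 22.4%, 18.9% and 14.4%. For Icos it was 51.5%, 29.6% and 47.2% against counting values of 25.1%, 19.0% and 17.0%. Cd2 had 21.0% against 28.5% in wild-type, 44.2% against 27.1% in muMt-/- and 55.7% against 24.2% in GABA-treated mice, values that restate its low libraries in the 2 muMt-/- groups. Values of Tnfrsf4 were 69.0%, 45.3% and 56.7% against 50.1%, 40.4% and 32.4%, and those of Tnfrsf18 58.0%, 28.4% and 32.6% against 37.9%, 26.1% and 24.4%. For Cd28 they were 54.2%, 39.6% and 55.3% against 29.4%, 24.8% and 24.2%. Only Cd2 in wild-type mice lay below its counting value. Cd27 had 46.4%, 46.7% and 61.0% against 44.0%, 35.7% and 30%, and Cd226 76.1%, 61.3% and 46.5% against 63.1%, 43.1% and 45.6%.

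Within the GABA group, 6 of the 8 receptors had replicates 1, 2 and 3 as their 3 lowest libraries, all but Tnfrsf18 and Cd226, beside 6.42% of 6663 genes. This split was chosen after seeing the values and was not tested. The same 3 libraries were lowest in T cell markers (85.2, 133 and 112, against 182, 199 and 157 in replicates 4, 5 and 6) and highest in macrophage markers (217, 119 and 214, against 32.2, 18 and 115). Per 100 T cell marker molecules 2 of 8, Tnfrsf9 and Cd27, had these 3 as their lowest libraries, beside 0.946% of genes. The part of cell mixture in this split was not tested.

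All 8 receptors summed to a normalized number with lowest value, median and highest value of 103, 120 and 151 in wild-type, 47.5, 113 and 138 in muMt-/- and 61.0, 114 and 180 in GABA-treated mice. The 4 lowest sums belonged to muMt-/- replicate 1 and GABA replicates 1, 2 and 3, and the groups overlapped. Per 100 T cell marker molecules the medians of the sum were 88.2, 78.9 and 79.3, with ranges of 62.6 to 100, 61.0 to 89.0 and 57.2 to 97.0.

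Across all 18 CD8 libraries, Cd28 and Cd2 followed each other most among pairs of the set (correlation 0.785, n = 18 libraries), ahead of Tnfrsf9 and Cd2 (0.652), Icos and Cd27 (0.640) and Tnfrsf4 and Tnfrsf9 (0.598). Tnfrsf18 and Cd226 had the lowest correlation, -0.305. The points share groups, depth and cell mixture, so these values describe the libraries and carry no test.

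Among 1883 genes with a mean of at least 5, the one most like Tnfrsf9 over the 18 libraries was Serpinb6b (0.877), followed by Prkch (0.842) and the cytotoxic granule gene Nkg7 (0.836). Tnfrsf4 was most like the ribosomal protein genes Rpl28 (0.878) and Rpl10 (0.864), then Rpl31-ps12 (0.827). For Tnfrsf18 they were Xpo1 (0.902), which encodes a nuclear export receptor, the proteasome gene Psma3 (0.874) and Rtn3 (0.851). No gene was named for more than 1 of these 3 receptors.

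Icos was most like Ctla2a (0.779), Usmg5 (0.763) and 2010107E04Rik (0.744). Next to Cd28 itself came Cd2 (0.785), the phosphatase gene Dusp2 (0.780) and Ttc39b (0.739). Cd27 resembled Atp5e (0.797), Rpl36 (0.781) and Cox17 (0.772), genes of the mitochondria and the ribosome. Cd2 had Klrd1 (0.837), a natural killer cell receptor that effector CD8 T cells also carry, Sdf4 (0.817) and Ctla2a (0.816). Cd226 had too low a mean for this search.

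CD8 T cells held far more RNA of every receptor than macrophages did. edgeR called 8 of 8 higher in CD8 than in TAM in wild-type mice, beside 5.99% of 8477 genes, 8 of 8 in muMt-/- mice, beside 7.71%, and 8 of 8 in GABA-treated mice, beside 7.93%. Log2 fold changes of the 8 ran from 5.03 to 6.93, 4.79 to 7.88 and 4.38 to 7.16 in the 3 groups, where the all-gene medians were -0.36, -0.10 and -0.12. These are fitted values, and for receptors with 1 molecule or none in TAM the ratios and bounds given below are the measure to read. With receptors at 0 in TAM set to a floor of 3 molecules, the median of the 8 was 5.22, 5.40 and 6.03, and without the floor 5.46, 6.27 and 6.51. These receptors are T cell genes, and in TAM alone only Tnfrsf9 passed the filter, so the other 7 entered the joint fit through the CD8 libraries. The direction was thus set by the choice of genes and the filter, and the count supports nothing further.

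Tnfrsf9 had 5.71, 4.26 and 5.96 molecules per 10000 in CD8 of wild-type, muMt-/- and GABA-treated mice and 0.102, 0.111 and 0.124 in TAM. The 2 cell types did not overlap in any group, even in molecules per library: the lowest CD8 library against the highest TAM library had 8 against 5, 6 against 4 and 18 against 7. Its ratio was 55.9 (counting interval 32.8 to 102), 38.3 (20.9 to 78.1) and 48.0 (28.6 to 86.9), and per 100-cell library 10, 15.6 and 19.4, a smaller ratio because TAM libraries hold more molecules. The ratio per library was 11.7, 19 and 14.5 for Tnfrsf4, 9.17, 89 and 51.5 for Tnfrsf18, 13.6, 43.5 and 70.3 for Icos and 41.5, 28.3 and 103 for Cd2. For Cd28 it was 8.11 in wild-type and 101 in GABA-treated mice.

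Icos, at 4.15, 4.31 and 4.32 per 10000 in CD8, had ratios to TAM of 76.1 (37.3 to 181), 106 (40.8 to 395) and 174 (58.7 to 851). Tnfrsf4 had 65.2 (20.5 to 331), 46.5 (12 to 398) and 35.9 (13.3 to 136). The ratios of Tnfrsf18 were 51.2 (22.1 to 146), 218 (38.1 to 8695) and 127 (34.4 to 1066), although its wild-type replicate with 0 molecules lay below the TAM maximum of 4. Molecules per library also touched for Tnfrsf4 in wild-type (lowest CD8 1, highest TAM 1) and GABA-treated mice (2 and 2) and for Cd226 in wild-type mice (0 and 0). Intervals this wide come from 1 to 8 molecules in TAM, so no order of the groups can be read from them.

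Cd28 was 45.3 times higher in CD8 in wild-type mice (22.6 to 103), at least 63.8 in muMt-/- mice, where TAM had none (the lower end of the 95% counting interval), and 250 (43.8 to 9967) in GABA-treated mice. Cd27 had no molecule in any of the 18 TAM libraries, which puts its ratio at 51.8, 30.6 and 45.1 or more by the same interval. For Cd2 the ratios were 232 (62.2 to 1946), 69.3 (22.9 to 343) and 255 (44.7 to 10162). Cd226 was at least 18.5 and 21.3 times higher in wild-type and muMt-/- mice, with 0 molecules in TAM, and 34.6 (8.73 to 300.1) in GABA-treated mice.

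**Figure D3:**
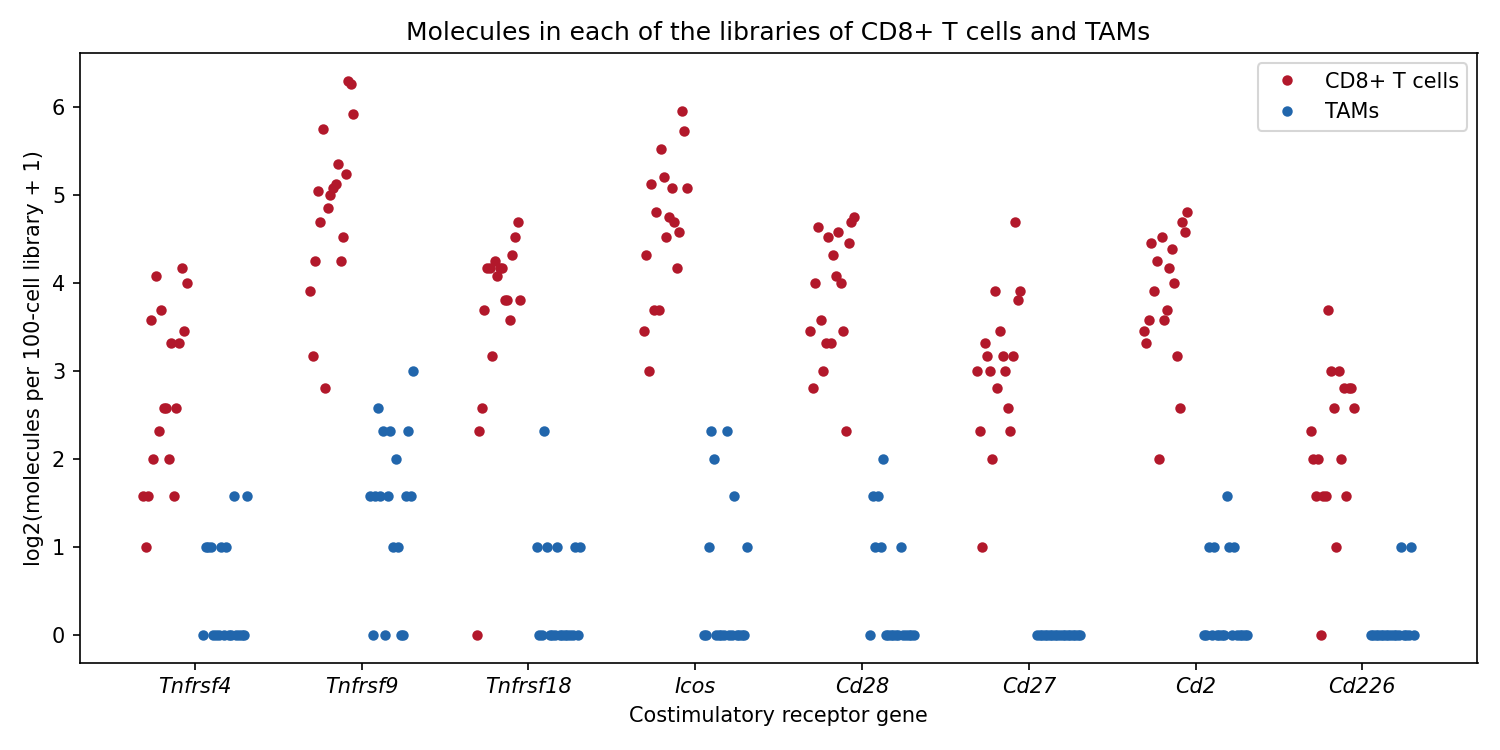
Molecules of each receptor per 100-cell library, as log2(molecules + 1), in 18 CD8 (red) and 18 TAM (blue) libraries (1 point per library). Cd27 was at 0 in all 18 TAM libraries, and Tnfrsf9 was found in 14 of them, with 41 molecules in all.

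In TAM only Tnfrsf9 passed the filter, into a fit of 9469 genes. It had 15, 11 and 15 molecules in the 6 libraries of the wild-type, muMt-/- and GABA-treated groups, at most 7 in a library, and its normalized number ran from 0 to 3.63 (median 1.64), 0 to 3.69 (median 1.95) and 0 to 5.82 (median 2.02). Each group had libraries at 0, and the groups overlapped throughout.

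Between TAM of muMt-/- and wild-type mice the count was 0 of 1 receptor, beside 2.05% of genes called, with 6.72% higher and 8.15% lower at unadjusted p under 0.05. GABA-treated against untreated mice also gave 0 of 1, beside 0.0211% called and 5.15% and 3.31% at the unadjusted level. For GABA-treated against wild-type mice it was 0 of 1 too, with 0.0739% called and 3.74% and 3.28% unadjusted. At unadjusted p under 0.05 DESeq2 had 1111, 580 and 440 genes in the 3 comparisons. It called 253, 60 and 14 of the 5245, 840 and 1391 genes left for its adjustment. edgeR and DESeq2 both had 0 receptors at unadjusted p under 0.05 in all 3. Log2 fold changes of Tnfrsf9 were 0.15 (SE 0.65), 0.14 (SE 0.66) and 0.29 (SE 0.61), with adjusted p = 0.954, 0.982 and 0.962, and each turned below 0 when some single library was left out.

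The other 7 receptors were nearly absent from TAM. Tnfrsf4 had 3, 2 and 4 molecules in the wild-type, muMt-/- and GABA-treated groups of 6, Tnfrsf18 6, 1 and 2, Icos 8, 4 and 3, and Cd28 9, 0 and 1. Cd2 had 2, 3 and 1 molecules and Cd226 0, 0 and 2, while Cd27 stayed at 0. Tested with no filter, 7 receptors entered the edgeR fit and 0 were called, beside 343, 51 and 63 of 14986 genes in the 3 comparisons. At unadjusted p under 0.05 there was 1 in muMt-/- against wild-type (beside 11.9% of genes) and 1 in GABA-treated against wild-type mice (beside 6.80%).

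The few T cell markers in TAM set these counts in proportion. Per 100 T cell marker molecules, Tnfrsf9 stood at 21.8 in CD8 (613 against 2815, counting interval 19.9 to 23.8) and 97.6 in TAM (41 against 42, interval 61.9 to 154). The 6 markers were not in equal proportion in the 2 cell types: Thy1 made up 24 of the 42 molecules in TAM and 1182 of 2815 in CD8, Cd3d 9 and 551, Cd3e 4 and 276, Cd3g 2 and 269, Cd247 2 and 207, and Lat 1 and 330. Tnfrsf9 also overlaps Camta1 on the opposite strand (mean normalized number 0.854 in CD8 and 2.55 in TAM). It is not stated whether molecules were counted by strand. By the molecule counts above Tnfrsf9 had more molecules in TAM per T cell marker molecule than in CD8. Which cells of the TAM gate carried it, and what part the overlap has, was not tested. Cd27 went the other way, 5.44 in CD8 and 0 (0 to 9.18) in TAM, an interval that spans the CD8 value. Tnfrsf4 stood at 4.65 in CD8 (3.88 to 5.55) and 21.4 in TAM (9.17 to 44.7), from 9 molecules in 7 TAM libraries. All these intervals pool molecules over libraries and cover counting error only, so whether they overlap is not a test between libraries. Those of Tnfrsf4 do not overlap. For the other 5 they do: Icos had 17.5 (15.9 to 19.3) and 35.7 (18.4 to 65.7), Cd28 9.66 (8.50 to 10.9) and 23.8 (10.7 to 48.2), and Tnfrsf18 8.77 (7.67 to 9.997) and 21.4 (9.17 to 44.7). Cd2 had 9.63 (8.47 to 10.9) and 14.3 (4.96 to 33.8), and Cd226 2.70 (2.12 to 3.39) and 4.76 (0.558 to 18.3).

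Genes around the receptors were read in 5 lists. In CD8 T cells 0 genes of any list passed the test in any comparison, beside 0% of all 6663 genes. The list of 10 ligands had 3 tested, with a median log2 fold change of 0.14 in muMt-/- against wild-type, 0.21 in GABA-treated against untreated and 0.36 in GABA-treated against wild-type mice. All 20 adaptors and signalling genes were tested, with medians of 0.01, -0.04 and -0.03. Of the 3 inhibitory receptors Ctla4, Tigit and Cd96, which compete for the same ligands, 2 were tested, with medians of 0.37, -0.61 and -0.24. Of the 15 other costimulatory receptors 10 were tested, with medians of 0.02, -0.12 and -0.30. The 14 survival and growth genes, all tested, had 0.32, -0.01 and 0.26. These medians stand beside 0.15, 0.03 and 0.21 for all genes.

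Values of the genes with the smallest p of each list, none of them called, follow. Among ligands these were Cd86 (log2 fold change 1.04 in muMt-/- against wild-type) and Cd48, the ligand of Cd2 (0.21 in GABA-treated against untreated, 0.36 in GABA-treated against wild-type). In the adaptor list they were Prkcq (-0.75) in muMt-/- against wild-type and Pik3r1, a subunit of PI3 kinase (-0.64 and -0.9998), in the other 2 comparisons. Of the other costimulatory receptors they were Cd5 (-0.50), Crtam (-0.95) and Cd84 (0.65) in the 3 comparisons in turn. Ifng, a cytokine that costimulation raises, had a lowest value, median and highest value of 101, 262 and 326 in wild-type, 107, 202 and 362 in muMt-/- and 183, 398 and 754 in GABA-treated mice. Its log2 fold change was 1.02 in GABA-treated against untreated (adjusted p = 0.999) and 0.97 in GABA-treated against wild-type mice (adjusted p = 0.458). Ctla4, which competes with Cd28 for Cd80 and Cd86, had medians of 9.77, 16.2 and 9.68 and log2 fold changes of 0.67 in muMt-/- against wild-type and -0.78 in GABA-treated against untreated mice, and Cd96 had -0.37 in GABA-treated against wild-type mice. The survival gene Bcl2 had medians of 9.69, 5.08 and 10.4, with -0.68 in muMt-/- against wild-type and 0.90 in GABA-treated against untreated mice. The macrophage markers had a median log2 fold change of 2.15 in CD8 of muMt-/- against wild-type mice. Their part in the Cd86 value was not tested.

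In TAM the ligand list had 7 genes tested, 0 called in each comparison, with medians of 0.16, -0.07 and 0.14. Pvr, a ligand of Cd226, had log2 fold changes of 1.44 in muMt-/- against wild-type and -0.74 in GABA-treated against untreated mice, and Tnfsf9, the ligand of Tnfrsf9, 1.12 in GABA-treated against wild-type mice. Of 16 adaptors tested, Siva1, which binds the tail of Cd27, fell in muMt-/- against wild-type mice (-1.12, adjusted p = 0.0426), the only gene of the 5 lists called in TAM, beside 2.05% of all genes. The nuclear RNAs Malat1 and Neat1 were both called higher in that comparison (median 1.02). Of 16 macrophage markers 1 was called higher and 3 lower there (median -0.17). The part of either list in the value of Siva1 was not tested. The adaptor list's medians were -0.19, -0.10 and -0.17, with the smallest p of the other 2 comparisons at Pik3cd (-0.63) and Pstpip1 (-0.88). The other costimulatory receptors (7 tested) had medians of 0.49, -0.43 and 0.02 and 0 called, the smallest p being at Cd84 (0.56), Tnfrsf1b (-0.51) and Ly9 (-0.66). The survival and growth genes (13 tested) had medians of 0.20, -0.09 and 0.10 and 0 called, the smallest p being at Bcl2a1a (0.44) in muMt-/- against wild-type mice and at Ifng, with 1, 0 and 18 molecules in the 3 groups, in the other 2. With a gene at 0 set to the floor the first of these medians was 0.25 and the others were as given. Ctla4, the single inhibitory receptor tested, had 20, 5 and 1 molecules in the 3 groups and -1.27, -2.01 and -3.28, not called.

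The lists were also read between the cell types, where 5.99%, 7.71% and 7.93% of all genes were called higher in CD8 and 16.8%, 13.6% and 14.1% lower. Of 5 ligands tested, 0, 0 and 1 were higher in CD8 and 1, 1 and 2 lower in wild-type, muMt-/- and GABA-treated mice (medians -1.40, -0.91 and -1.41), with Cd86 lower in all 3 (-2.70, -1.48 and -1.88) and, in GABA-treated mice, Icosl lower (-3.76) and Cd48 higher (0.79). Among 20 adaptors 8 were higher and 2 lower in each group (medians 0.56, 0.80 and 0.63), among them Lck, a kinase of the antigen receptor, with 98, 109 and 158 molecules in CD8 and 5, 2 and 0 in TAM, Prkcq, with 31, 26 and 36 against 0, 2 and 0, and Traf1 (4.47, 4.55 and 2.78). Both inhibitory receptors tested were higher in all 3 groups, with medians of 4.05, 5.46 and 5.76, or 4.05, 4.67 and 5.09 with genes at 0 set to the floor. Of 10 other costimulatory receptors 6, 5 and 5 were higher and 1, 1 and 0 lower (medians 1.47, 1.60 and 1.48), among them Cd5 with 34, 34 and 40 molecules in CD8 and 1, 0 and 0 in TAM, Cd6 with 55, 55 and 74 against 4, 0 and 3, and Klrk1 (1.94, 2.11 and 2.05). The 14 survival and growth genes had 6, 7 and 8 higher and 5, 5 and 4 lower, with medians of 0.65, 0.85 and 1.23, and Ifng had 1066, 1432 and 3593 molecules in CD8 against 1, 0 and 18 in TAM. Il2ra (2.71, 3.90 and 3.46) and Tnfaip3 (2.44, 2.23 and 2.12) were higher in CD8 as well. Setting genes at 0 to the floor left the medians of these 4 other lists as they are. Cd96, Lck, Prkcq, Cd5 and Cd6 were among the genes of the lists that did not pass the filter in TAM alone. Such genes entered the joint fit through the CD8 libraries, so their direction was set by the filter. The counts and medians above include them.

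Several of the receptors are neighbours in the mouse genome. On chromosome 4 of build GRCm38 (RefSeq annotation) Tnfrsf4 and Tnfrsf18 lie on the same strand with 9708 bases between them, at chr4:156013595-156016613 and chr4:156026322-156028894, and Tnfrsf9 lies on the same chromosome. Cd28 and Icos sit 187413 bases apart on chromosome 1, both on the plus strand. Cd27 is on chromosome 6, Cd2 on chromosome 3 and Cd226 on chromosome 18. None of these neighbours was called between groups of CD8 T cells.

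Some of the receptors also overlap other genes in GENCODE. Tnfrsf9 overlaps Camta1 on the opposite strand (mean normalized number 0.854 in CD8 and 2.55 in TAM), and Cd27 overlaps Vamp1 (0.113 and 0.171). Whether molecules were counted by strand is not stated, so reads of such pairs cannot be told apart from the annotation alone.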

How the data were processed

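The count table deposited by the authors was used as it stands: molecules counted by barcode after alignment to mm10 with STAR. The 8 receptors and all lists were chosen with earlier results of these data known. edgeR 4.0.16 tested each gene whose normalized number averaged above 1 (quasi-likelihood test, TMM scaling, under R 4.3.3), in fits of 18 CD8, 18 TAM and all 36 libraries, with Benjamini-Hochberg adjustment over every gene tested and a threshold of 0.05. All 8 receptors were named, and from each list at most 4 of the genes called or else the one with the smallest p. Alternatives were scaling by DESeq2 1.42.0, its Wald test, filterByExpr, no filter, a replicate block, fits of 12 libraries and leaving out each library, and, chosen after seeing the data, T cell marker scaling and only libraries with more T cell than macrophage markers. Genes alike were ranked by the correlation of log2(normalized number + 1). Python 3.11.15 with numpy 2.4.6, pandas 2.3.3 and scipy 1.17.1 did the summaries. The scripts were tested on simulated data. Some genes of the lists are not reported here.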

Additional observations from a re-analysis of the deposited data

Results flagged for a closer look

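Of 60 groups of values looked at, 7 held a library far from the others of its group by Dixon's test, which passes about 1 group in 20 by chance. Macrophage markers in CD8 T cells summed to 119 in wild-type replicate 5, the next 28.7, and to 399 in muMt-/- replicate 1, the next 150. Dendritic cell markers in TAM reached 16.2 in wild-type replicate 1 (next 8.72) and 24.0 in muMt-/- replicate 3 (next 8.62). Tumour and stroma markers in TAM were 598 in wild-type replicate 6 (next 18.8) and 265 in GABA replicate 2 (next 11.9). Nuclear RNA in TAM was 2110 in muMt-/- replicate 4 (next 1190). Of the receptors looked at, all 8 in CD8 and Tnfrsf9 in TAM, none had such a library.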

How the results depend on the processing

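The 69 results gave 1290 values under the alternatives, and no receptor's call changed wherever it was tested. filterByExpr tested 6 of 8 receptors in CD8, 0 in TAM and 7 of 8 between the cell types (7 called). Beside these, 491, 558 and 561 of 2614 genes were called higher in CD8 in wild-type, muMt-/- and GABA-treated mice. 51 values of a receptor changed sign, 37 of them in fits that left out 1 library. With DESeq2 size factors in edgeR, Tnfrsf4 in CD8 GABA-treated against wild-type mice was -0.0495. With filterByExpr, Icos was -0.0041 (muMt-/- against wild-type), -0.0015 (GABA-treated against untreated) and -0.0055 (GABA-treated against wild-type), and Cd27 in GABA-treated against wild-type -0.0085. Under T cell marker scaling, GABA-treated against untreated gave Cd2 -0.016 and Icos -0.11, and GABA-treated against wild-type gave Cd27 -0.043, Icos -0.0039 and Tnfrsf4 -0.066. In the fit of libraries with more T cell than macrophage markers, muMt-/- against wild-type gave Cd27 0.28, Cd28 0.26, Tnfrsf4 0.13 and Tnfrsf9 0.0205. The cause was not tested.

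Leave-one-out log2 fold changes that changed sign ran, in muMt-/- against wild-type, from -0.28 to 0.065 (Cd27), -0.36 to 0.0597 (Cd28) and -0.54 to 0.089 (Tnfrsf4). In GABA-treated against wild-type they ran from -0.13 to 0.34 (Cd27), -0.075 to 0.52 (Cd226) and -0.12 to 0.49 (Tnfrsf4). In GABA-treated against untreated they ran from -0.14 to 0.31 (Cd2), -0.033 to 0.49 (Cd27), -0.37 to 0.0798 (Cd28), -0.11 to 0.22 (Icos) and -0.20 to 0.11 (Tnfrsf18). Tnfrsf9 in TAM ran from -0.15 to 0.43 (muMt-/- against wild-type), -0.44 to 0.45 (GABA-treated against untreated) and -0.29 to 0.60 (GABA-treated against wild-type).

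Counts of genes called in CD8, 0 in each comparison, became 72 (muMt-/- against wild-type), 11 (GABA-treated against untreated) and 64 (GABA-treated against wild-type) with no filter, 1, 1 and 1 with 12 libraries, and 1, 1 and 2 with only libraries with more T cell than macrophage markers. GABA-treated against wild-type gave 1 with DESeq2's Wald test and 1 with its size factors, and leaving out 1 library gave 0 to 13, 0 to 1 and 0 to 1. In TAM the counts of 194, 2 and 7 became 343, 51 and 63 with no filter and 69 to 230, 2 to 35 and 2 to 9 when 1 library was left out. For the first, filterByExpr gave 295 and 12 libraries 324, for the next DESeq2's Wald test gave 60, and for the last these 3 gave 2, 3 and 14. Counts between the cell types, 1928, 1810 and 1869, became 1166 (wild-type) and 1209 (GABA-treated) with filterByExpr, and 1598 to 1885, 1535 to 1946 and 1516 to 1958 when 1 library was left out.

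Correlations of libraries with equal numbers averaged at most 0.0744 for any 2 groups, so equal numbers were not used as pairs. Whether they share a mouse was not tested. A replicate block gave 2 genes in CD8 GABA-treated against untreated, 1 in GABA-treated against wild-type and 4 in TAM GABA-treated against untreated. It changed no call of a receptor.

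Receptor counts were low, from 14 to 291 molecules in a CD8 group, so intervals were wide: Cd226 in muMt-/- against wild-type mice spans -0.42 to 1.80. The GABA pellet was given to muMt-/- mice only, so GABA and genotype cannot be told apart in the comparison with wild-type mice.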
